A study of Mus musculus with 18 samples.

Results

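Interferon-stimulated genes are the genes that cells switch on when an interferon binds its receptor, and 38 of them were followed here across mouse intestinal tumours and intestinal epithelial cells with and without epithelial Stat3. The members were a list of gene symbols, each read from the probe set of that symbol with the highest mean over the 18 arrays. Of the 38 listed genes, 34 had a probe set of their own among the 19938 named genes. Isg15, Gbp2 and Igtp lay only on probe sets that the platform table assigns to several genes (Isg15 with Gm9706, Gbp2 with Gbp2b, Igtp with Irgm2), and Ifi44 was not matched, so none of these 4 has a value here. All 34 passed the filter on low values, and 33 of them had a single probe set.

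The study asked whether Stat3 is needed for intestinal tumour progression in mice that carry the APCmin mutation, which activates Wnt signalling and gives intestinal tumours. Each of the 6 groups held 3 arrays, numbered as replicates 1 to 18 over the series: Stat3-deleted male tumours (10 to 12), control male tumours (7 to 9), Stat3-deleted female tumours (16 to 18), control female tumours (13 to 15), Stat3-deleted epithelial cells (4 to 6) and control epithelial cells (1 to 3). The deleted groups are labelled Stat3-/- and come, per the series text, from Stat3deltaIEC mice, in which a Cre recombinase under the Villin promoter removes floxed Stat3, while the controls are labelled Stat3fl/fl and have the floxed alleles without that deletion. The APCmin/+ background is stated for the mouse lines as a whole. Villin drives Cre in the gut epithelium only, so by design the stromal and immune cells of a tumour keep their Stat3. Stat3 was not measured by cell type here. The labels give no age for any sample and no sex for the epithelial cells. The descriptions of all samples, epithelial cells included, name colorectal tumours induced with azoxymethane and dextran sulfate. This differs from the spontaneous, mainly small-intestinal tumours of the series text, and whether any mouse received these agents cannot be told from the labels. Whether the 3 arrays of a group stand for 3 animals is not stated, so a p-value here reflects only the scatter among the arrays, part of which may be technical.

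Type I and type III interferons signal through receptor-bound Janus kinases to a transcription factor complex that holds STAT2 and IRF9 and binds a DNA element called the interferon-stimulated response element (ISRE). Interferon gamma acts mainly at another element, the gamma-activated site (GAS). The induced proteins block viral translation, cut or edit RNA, trap virus particles, tag proteins with ISG15 and feed back on interferon signalling, and in the intestine the epithelium itself, the immune cells around it and the microbiota all contribute to a standing level of these transcripts.

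The values are log2 expression values after RMA normalisation, differences are Stat3-deleted minus control or tumour minus epithelial cells on that log2 scale (1 unit is a doubling), and ± after a difference is the standard error of the fit. A gene passed the test when its p-value from limma, adjusted by the Benjamini-Hochberg method over the 17316 genes tested, was under 0.05. Stat3 was lower on every deleted array, at 7.73 to 8.46 in the 9 deleted samples and 9.74 to 10.35 in the 9 control samples. Control tumour replicates 9 and 15 differed from the other tumours in markers of gut position: Hoxd13, a hindgut transcription factor, was at 8.25 and 9.10 there and at 4.82 to 5.80 on the other 16 arrays. For each comparison that uses them, the number of members passing or at an unadjusted p under 0.05 is also given without both. Single-gene results, counts of genotypes that did not overlap, the group order and tests of the other gene lists are not given without both. Shares of all genes at an unadjusted p under 0.05 are not given for alternative fits. Xist was at 9.77 to 10.45 in the 6 female tumours and at 3.81 to 4.46 on every other array, epithelial cells included. Mean values of 8 epithelial markers were high on all arrays, at 10.84 and 10.85 in control tumour replicates 9 and 15 and at 11.29 to 11.82 on the other 16. In these bulk samples, fewer cells of a type and less RNA per cell cannot be told apart.

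Promoters of 5 members are printed, 4 because they hold letters of the element that interferon-stimulated genes are known for. That of Oasl2 is printed because the gene passed in tumours without these letters. They are RefSeq promoters of the mouse build GRCm38.p6, written 5′ to 3′ on the gene's strand, from 250 bases before to 50 bases after the start site, with capitals on each match, on either strand, to the ISRE letters GAAA, any 2 bases and GAAA (on the other strand TTTC, any 2 bases and TTTC). Each was the member with the largest mean difference in tumours of both sexes among those of its role with an entry; Herc6, chosen in the same way for the ISG15 system, is not printed. They are the Ifit3 promoter (chr19:34583279-34583578, plus strand), the Gbp3 promoter (chr3:142559794-142560093, plus strand), the Bst2 promoter (chr8:71537423-71537722, minus strand), the Trim30a promoter (chr7:104465144-104465443, minus strand) and the Oasl2 promoter (chr5:114896684-114896983, plus strand).
Ifit3: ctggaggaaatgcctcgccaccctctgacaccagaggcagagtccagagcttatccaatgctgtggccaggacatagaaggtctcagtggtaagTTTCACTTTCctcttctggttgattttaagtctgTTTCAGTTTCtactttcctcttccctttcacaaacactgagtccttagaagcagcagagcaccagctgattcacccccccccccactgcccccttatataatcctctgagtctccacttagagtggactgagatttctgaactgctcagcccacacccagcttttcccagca
Gbp3: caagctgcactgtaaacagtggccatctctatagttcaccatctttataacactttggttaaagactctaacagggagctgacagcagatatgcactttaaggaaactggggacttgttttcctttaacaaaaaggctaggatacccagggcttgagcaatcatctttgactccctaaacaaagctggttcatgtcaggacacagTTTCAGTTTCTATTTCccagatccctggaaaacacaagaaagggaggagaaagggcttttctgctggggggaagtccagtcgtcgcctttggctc
Bst2: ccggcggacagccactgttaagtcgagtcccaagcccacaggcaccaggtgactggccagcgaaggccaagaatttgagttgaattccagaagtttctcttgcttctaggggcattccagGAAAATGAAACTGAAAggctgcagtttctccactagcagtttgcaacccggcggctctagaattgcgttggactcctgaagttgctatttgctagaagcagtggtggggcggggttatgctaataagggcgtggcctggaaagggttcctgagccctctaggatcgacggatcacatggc
Trim30a: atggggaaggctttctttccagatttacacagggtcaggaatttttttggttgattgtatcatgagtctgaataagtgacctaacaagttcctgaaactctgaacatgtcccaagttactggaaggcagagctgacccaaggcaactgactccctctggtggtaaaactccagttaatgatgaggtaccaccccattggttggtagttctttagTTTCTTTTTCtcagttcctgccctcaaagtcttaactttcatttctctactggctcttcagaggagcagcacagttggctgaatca
Oasl2: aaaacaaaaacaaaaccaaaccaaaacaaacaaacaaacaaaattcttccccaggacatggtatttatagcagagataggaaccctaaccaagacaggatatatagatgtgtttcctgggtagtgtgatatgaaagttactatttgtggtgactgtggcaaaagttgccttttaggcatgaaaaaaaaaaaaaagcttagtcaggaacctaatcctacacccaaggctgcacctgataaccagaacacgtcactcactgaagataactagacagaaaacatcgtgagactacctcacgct

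The Ifit3 promoter held 2 separate matches, whose first bases lay 156 and 122 bases before the start site. Gbp3 and Bst2 each held 2 overlapping matches, starting 45 and 39 bases before the start site in Gbp3 and 130 and 124 bases before it in Bst2, and Trim30a held 1 match 36 bases before it. Oasl2 and Herc6 had no match within these 300 bases. Of the 34 members, 25 had a promoter entry and 10 of those (40.0%) held the ISRE letters: Ifit3, Ifit1, Trim30a, Gbp3, Bst2, Oas3, Rsad2, Irgm1, Ifih1 and Eif2ak2. Over all 27025 genes with an entry, 3.49% held them. The GAS letters TTCNNNGAA, which read the same on both strands, occurred in 6 of the 25 (24.0%; Bst2, Ifit2, Ifi35, Eif2ak2, Irf1 and Irf8) and in 8.47% of all promoters. In Bst2 the GAS match began 136 bases before the start site and overlapped the first ISRE match. A match is a description of letters in this window only.

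In tumours, every one of the 34 members had a higher mean with Stat3 deleted when both sexes were averaged, and 7 passed the test: Ifit3, Oasl2, Oas3, Irf7, Ube2l6, Ifi35 and Ifi27l2a. The 34 differences ran between 0.27 (Irf8) and 1.82 (Ifit3) with a median of 0.96, while the median over all tested genes was -0.04 and 40.7% of all genes had a difference above 0. Among all genes tested, 0.289% passed as higher and 0.422% as lower in this comparison. An unadjusted p under 0.05 was reached by 31 of the 34, against 12.02% of all genes. The members were chosen with earlier results of these data known, so the excess over all genes is not independent evidence. Only Ifi27l2a, Ifi35 and Ube2l6 had all 6 deleted tumours above all 6 control tumours, a separation seen for 0.219% of all genes, and none had the reverse (1.14% of all genes). With the 6 tumour arrays of each genotype fitted alone, 3 members passed, with 0.0751% of all genes as higher. With array weights 25 passed, with 2.70% of all genes as higher and 5.47% as lower. The number was 20 without control replicate 9 (0.491% of all genes as higher) and 24 without control replicates 9 and 15 together (0.578%). It was 4 without Stat3-deleted replicate 16 (0.139%).

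**Figure D1:**
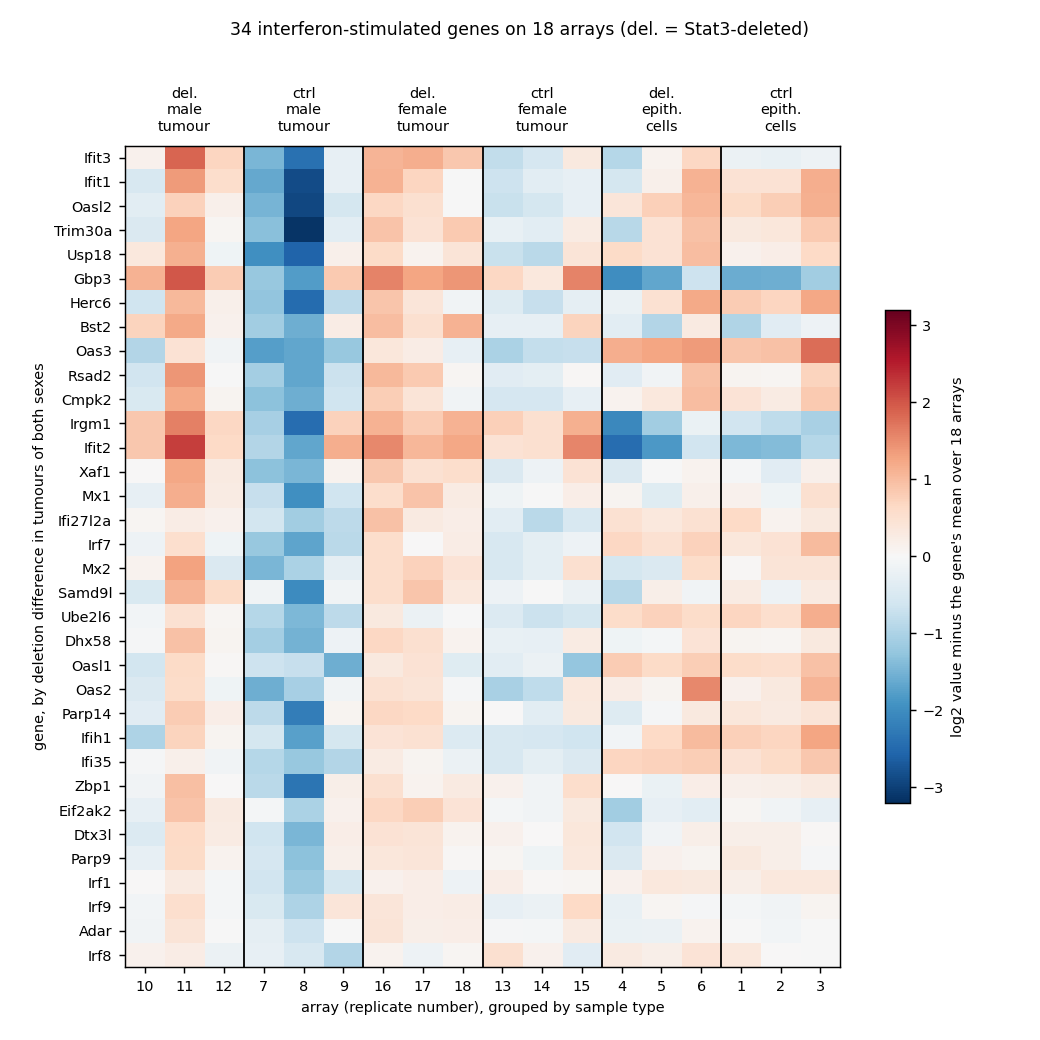
Log2 values of the 34 genes (rows, ordered by their mean deletion difference in tumours) on the 18 arrays (columns, 3 per group), each shown as its distance from the gene's mean over all arrays, with red above and blue below. Deleted male replicate 11 is the reddest male tumour for all 34 genes, and control male replicate 8 is the lowest of the 12 tumours for 29 of them.

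Among the transcription factors, Irf7, which amplifies type I interferon production, rose. Irf7 was at 9.39, 10.10 and 9.43 in Stat3-deleted male tumours, against 8.34, 7.88 and 8.70 in control male tumours. In female tumours it was at 10.12, 9.57 and 9.80 with Stat3 deleted, against 9.06, 9.25 and 9.41 in controls. The genotypes did not overlap within either sex, and the mean difference was 0.96 ± 0.17 (adjusted p = 0.0124), which is about 1.95-fold. Irf1, which acts downstream of interferon gamma, was at 10.17, 10.44 and 10.10 in Stat3-deleted male tumours, against 9.54, 8.97 and 9.60 in control male tumours. Irf1 passed in males alone (0.87 ± 0.17, adjusted p = 0.0491), and in females its difference was -0.05 ± 0.17, with 10.29, 10.36 and 10.01 in Stat3-deleted tumours and 10.37, 10.20 and 10.22 in control tumours. The Irf1 call was kept in 1 of 6 fits that left out a male tumour. A second, dimmer Irf1 probe set did not overlap between genotypes in either sex. In females it was at 6.29, 6.26 and 6.19 in Stat3-deleted tumours, against 6.09, 5.99 and 6.16 in control tumours. In males it was at 6.36, 6.48 and 6.25, against 5.76, 6.07 and 6.07. Irf9, the DNA-binding partner of STAT2, and Irf8, a factor of myeloid and B cells, had differences of 0.35 and 0.27 and did not pass. Irf8 and Irf9, with Adar at 0.31, were the members with the smallest differences.

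The IFIT proteins bind foreign RNA and block its translation. Ifit3 had the largest difference of all members: it was at 7.65, 9.39 and 8.20 in Stat3-deleted male tumours, against 6.07, 5.13 and 7.26 in control male tumours. In female tumours Ifit3 was at 8.61, 8.69 and 8.39 with Stat3 deleted, against 6.75, 6.99 and 7.82 in controls. Every deleted tumour lay above every control of the same sex, and the mean difference was 1.82 ± 0.35 (adjusted p = 0.0203), about 3.53-fold. Ifit1 was the second largest, at 8.81, 10.68 and 9.89 in Stat3-deleted male tumours, against 7.69, 6.46 and 9.08 in control male tumours. Deleted male replicate 10 lay below control male replicate 9 for Ifit1, the female genotypes did not overlap (10.45, 10.02 and 9.32 deleted, 8.67, 9.001 and 9.06 control), and the mean difference of 1.53 ± 0.40 did not pass (adjusted p = 0.0946). Ifit2 had a mean difference of 1.08 ± 0.42 and did not pass either. Ifit2 and Ifit3 are neighbours on chromosome 19, and neighbouring or related genes are not independent observations.

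The OAS enzymes make short oligoadenylates that activate RNase L, and the OAS-like proteins are their relatives. Of the 4 members here, Oasl2 and Oas3 passed in tumours of both sexes. Oasl2 was at 9.50, 10.58 and 10.003 in Stat3-deleted male tumours, against 8.34, 6.93 and 9.27 in control male tumours. In female tumours Oasl2 was at 10.49, 10.35 and 9.83 with Stat3 deleted, against 9.11, 9.28 and 9.57 in controls, and its mean difference was 1.37 ± 0.30 (adjusted p = 0.0449). Oas3 was at 7.24, 8.61 and 8.06 in Stat3-deleted male tumours, against 6.39, 6.49 and 6.94 in control male tumours. In female tumours Oas3 was at 8.53, 8.39 and 7.91 with Stat3 deleted, against 7.14, 7.40 and 7.42 in controls. Both genes kept the genotypes apart within each sex, and the Oas3 difference was 1.16 ± 0.21 (adjusted p = 0.0133). Oasl1 (0.86) and Oas2 (0.85) did not pass. Oas2 lies next to Oas3 and Oasl1 next to Oasl2 on chromosome 5.

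In the ISG15 system, Ube2l6, the enzyme that carries ISG15 to its ligases, passed in males and in both sexes. Ube2l6 was at 8.97, 9.54 and 9.13 in Stat3-deleted male tumours, against 8.14, 7.62 and 8.22 in control male tumours. It was at 9.36, 8.87 and 9.04 in Stat3-deleted female tumours, against 8.63, 8.38 and 8.48 in control female tumours. The lowest deleted tumour (8.87) stood above the highest control (8.63), with a mean difference of 0.90 ± 0.15 (adjusted p = 0.0059). Usp18, which removes ISG15 and restrains the type I receptor, had a larger difference of 1.33 ± 0.37 but spread more: it was at 9.24, 10.02 and 8.75 in Stat3-deleted male tumours, against 6.93, 6.32 and 9.07 in control male tumours, and did not pass (adjusted p = 0.115). Herc6, an ISG15 ligase in the mouse, had 1.29 ± 0.32 (adjusted p = 0.0714).

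None of the 8 other antiviral effectors passed in tumours, with differences of 0.31 to 1.16. Bst2, the tetherin that holds budding virus at the cell surface, had 1.16 ± 0.30 (adjusted p = 0.094). Rsad2, which makes a chain-terminating nucleotide, and Cmpk2, a nucleotide kinase encoded next to it on chromosome 12, both had 1.13, and their genotypes were apart within each sex. Mx1 and Mx2, dynamin-like GTPases against viral nucleocapsids, had 1.02 and 0.96. They were the dimmest members, below the array's own median on 11 and 10 of the 18 arrays. Samd9l, an inhibitor of translation in the antiviral response, had 0.93, Eif2ak2, the RNA-activated kinase that stops translation, 0.61, and the RNA editing enzyme Adar 0.31.

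The nucleic acid sensors Ifih1, Dhx58 and Zbp1 had differences of 0.81, 0.88 and 0.70 without passing. The interferon-inducible GTPases Gbp3 and Irgm1, which act on vacuoles holding microbes, had 1.29 and 1.09 with wide errors (0.37 and 0.40) and did not pass. Irgm1 shows the spread behind them: it was at 9.57, 10.32 and 9.35 in Stat3-deleted male tumours, against 7.64, 6.27 and 9.43 in control male tumours, so that control replicate 9 reached the level of the deleted tumours. The ADP-ribosylation genes Parp9, Dtx3l and Parp14, 3 neighbours on chromosome 16, were among the smaller differences, at 0.45, 0.47 and 0.84.

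Of the remaining members, Ifi27l2a, a mitochondrial interferon-induced protein, had the lowest adjusted p. Ifi27l2a was at 6.02, 6.21 and 6.12 in Stat3-deleted male tumours, against 5.39, 4.87 and 5.13 in control male tumours. In female tumours it was at 6.89, 6.25 and 6.18 with Stat3 deleted, against 5.62, 5.10 and 5.45 in controls. The difference was almost the same in both sexes (0.99 ± 0.20 in males, 1.05 ± 0.20 in females) and averaged 1.02 ± 0.14 (adjusted p = 0.00145). Ifi27l2a was below the array median on 6 arrays. Ifi35, an interferon-induced leucine zipper protein, was at 8.88, 9.08 and 8.81 in Stat3-deleted male tumours, against 7.995, 7.70 and 7.97 in control male tumours. Ifi35 was at 9.19, 9.02 and 8.74 in Stat3-deleted female tumours, against 8.41, 8.60 and 8.47 in control female tumours, and its mean difference was 0.76 ± 0.11 (adjusted p = 0.00188). Xaf1, a pro-apoptotic interferon target, and Trim30a, a mouse tripartite-motif protein that restrains inflammatory signalling, had 1.05 and 1.37 without passing. Ifi27l2a, Ifi35, Irf7 and Ube2l6 passed in all 12 fits that left out 1 tumour array, Oas3 in 11, Ifit3 in 8 and Oasl2 in 4.

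**Figure D2:**
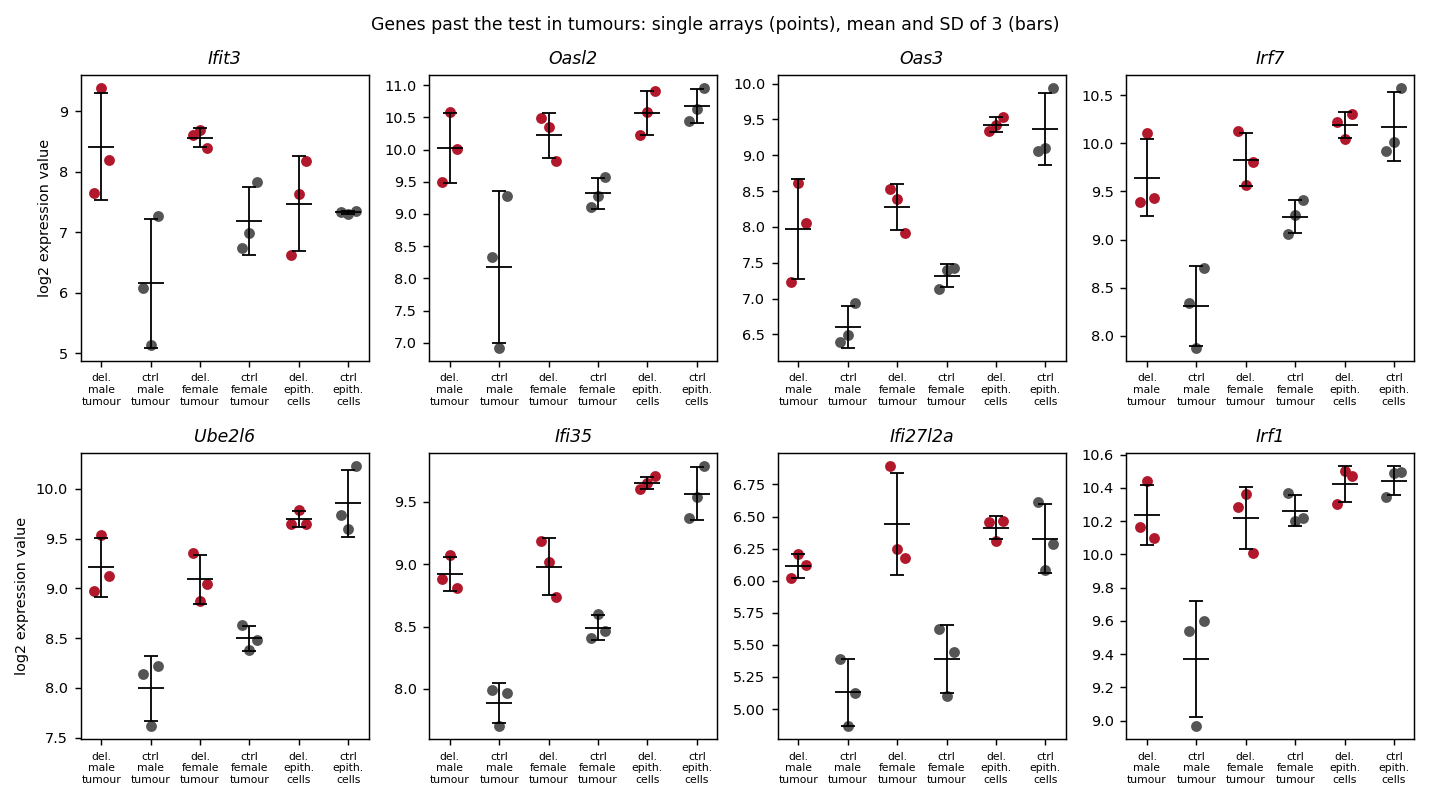
Log2 values (vertical axis, its range set for each gene) of the 8 genes that passed in at least 1 tumour comparison, for the 6 groups, with 1 point per array and bars for the mean and SD of 3. Deleted tumours (red) lie above control tumours (grey) of the same sex for 7 of the genes. Irf1, on the probe set shown, separates in males only.

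Sex by sex, the members that passed were all in males, while the members' differences lay mostly above 0 in both sexes. In male tumours the 34 differences ran between 0.42 (Adar) and 2.26 (Ifit3), with a median of 1.27, so that 34 of 34 were above 0 (42.1% of all genes), and 24 exceeded 1. Irf1, Irf7 (1.33 ± 0.24, adjusted p = 0.0288), Ube2l6 (1.22 ± 0.21, adjusted p = 0.0172) and Ifi35 (1.03 ± 0.15, adjusted p = 0.0053) passed, against 0.116% of all genes as higher. An unadjusted p under 0.05 was reached by 31 members and 7.52% of all genes. Without control replicates 9 and 15, 18 members and 0.416% of all genes passed as higher. In female tumours the differences ran between -0.09 (Irf8) and 1.38 (Ifit3), with a median of 0.64, 32 of 34 were above 0 (42.2% of all genes), and 3 exceeded 1. No member passed in females by limma, where 0.0173% of all genes passed as higher and 0.0866% as lower, 9 members and 5.03% of all genes had an unadjusted p under 0.05, and the lowest adjusted p was 0.0573 (Ifi27l2a). With array weights 15 members passed in females, with 1.57% of all genes as higher and 2.73% as lower. Without replicate 18, 1 member passed, with 0.0347% of all genes as higher. Without control replicates 9 and 15 none passed by limma, with 17 at an unadjusted p under 0.05. The genotypes did not overlap, with the deleted tumours higher, for 15 members in males and 17 in females, against 2.06% and 5.2% of all genes. The reverse held for none, against 8.03% and 10.4% of all genes. Of these, 11 were shared, which is 11 of the 15 and 11 of the 17. The share of all genes apart in each sex separately was not computed, so the number shared has no background to be read against.

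The sex difference of the effect was tested in its own contrast, female minus male. It was below 0 for 33 of 34 members, where 52.3% of all genes were above 0, with a median of -0.70, and no member passed by limma, nor did any of the genes tested (0%), with 6 members and 0.936% of all genes at an unadjusted p under 0.05. The median was -0.38 without control male replicate 8, -0.43 without Stat3-deleted male replicate 11, -0.35 with array weights, and -0.88 without control replicates 9 and 15, with 15 members then at an unadjusted p under 0.05. Irgm1 had the largest sex difference, -1.75 ± 0.80, its deletion difference being 0.21 in females and 1.96 in males. Averaged over genotypes, all 34 members were lower in male than in female tumours, where 45.6% of all genes were above 0, with a median of -0.49, and none passed by limma, with 9 members and 6.13% of all genes at an unadjusted p under 0.05 and 0.00578% of all genes passing as lower. That median was -0.32 without control male replicate 8 and -0.59 without control replicates 9 and 15, where 24 members had an unadjusted p under 0.05, and the number at that p was 3 to 25 with 1 tumour left out.

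Single male arrays carried much of this. The mean over the 34 members was 8.24, 9.31 and 8.51 in Stat3-deleted male tumours 10, 11 and 12, against 7.38, 6.68 and 8.11 in control male tumours 7, 8 and 9. In female tumours it was 9.04, 8.85 and 8.63 with Stat3 deleted, against 8.12, 8.10 and 8.50 in controls. Replicate 11 was the highest male tumour for all 34 members and replicate 8 the lowest of the 12 tumours for 29. Among the 12 tumours, replicate 8 also had the lowest marker means for T and NK cells (5.59) and B and plasma cells (6.58). The same held for macrophage and dendritic cell markers (6.52), but not for neutrophil, fibroblast, endothelial or epithelial markers. In the fit with array weights, replicate 8 had the lowest weight of all arrays (0.163). The part of cell content in its member values was not tested. Within control male tumours replicate 9 was the highest for 29 members, and within control female tumours replicate 15 was the highest for 26. The median SD of the members was 0.59 in Stat3-deleted male tumours and 0.734 in control male tumours, against 0.196 and 0.286 for all genes tested in those groups. In females it was 0.252 and 0.249, with 0.160 and 0.145 for all genes. When 1 male array was left out, the members passing in males numbered 0 for replicate 11, 1 for replicate 8, 2 for replicate 7 and 15 for replicate 9. The shares of all genes passing as higher in these fits were 0.0231%, 0.052%, 0.0809% and 0.312%. The median difference of the 34 ran between 0.96 (without replicate 11) and 1.59 (without replicate 9). All 34 differences stayed above 0 in each fit that left out 1 male array. Fitting the male tumours alone left 0 passing, with 24 at an unadjusted p under 0.05.

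**Figure D3:**
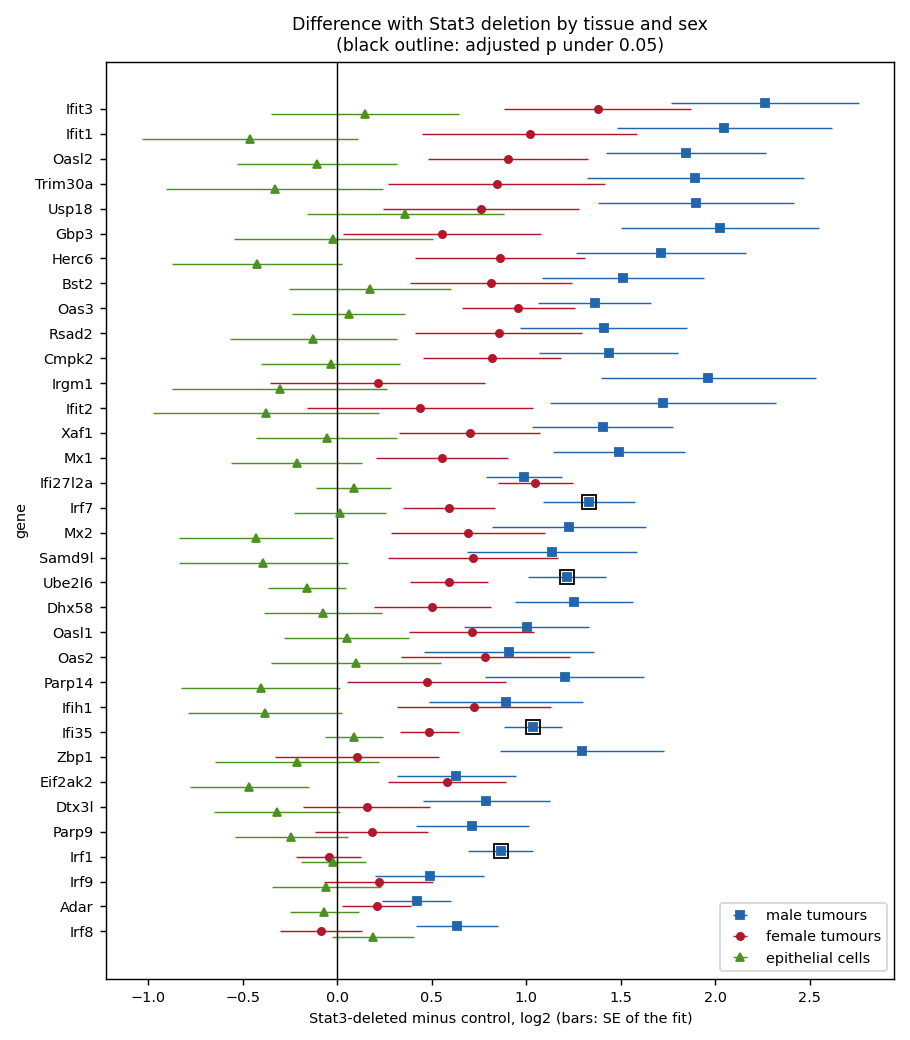
Stat3-deleted minus control difference (horizontal axis, log2, bars for the SE of the fit) for each of the 34 genes in male tumours, female tumours and epithelial cells, with a black outline where the adjusted p was under 0.05. Male tumour differences lie right of female ones for 33 genes, and epithelial cell differences lie between -0.46 and 0.36.

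In epithelial cells, no member passed by limma in either direction and 0 had an unadjusted p under 0.05 (6.80% of all genes), where 0% of all genes passed as higher and 0.0231% as lower. The 34 differences ran between -0.46 (Eif2ak2) and 0.36 (Usp18), with a median of -0.09, and 10 were above 0 (50.7% of all genes). Eif2ak2 was the only member whose groups did not overlap (6.3% of all genes were apart as higher and 7.81% as lower), at 7.17, 8.03 and 7.96 in Stat3-deleted cells and 8.34, 8.17 and 8.03 in control cells. Its highest deleted and lowest control values differed only beyond the decimals printed here. Irf7 was at 10.22, 10.04 and 10.31 in Stat3-deleted cells, against 9.92, 10.02 and 10.58 in control cells, a difference of 0.02 ± 0.24. Irf1 was at 10.30, 10.50 and 10.47 in Stat3-deleted cells, against 10.34, 10.49 and 10.50 in control cells. Neither factor separated the genotypes here. Ifit3 was at 6.62, 7.64 and 8.17 in Stat3-deleted cells, against 7.34, 7.30 and 7.35 in control cells, so the deleted arrays lay on both sides of the controls. Oasl2 was at 10.22, 10.58 and 10.90 in Stat3-deleted cells, against 10.44, 10.62 and 10.96 in control cells. Oas3 was at 9.33, 9.42 and 9.53 in Stat3-deleted cells, against 9.05, 9.10 and 9.94 in control cells. Both OAS family genes overlapped between genotypes. Ube2l6 was at 9.65, 9.79 and 9.65 in Stat3-deleted cells, against 9.74, 9.59 and 10.23 in control cells (-0.16 ± 0.21). Ifi35 was at 9.61, 9.65 and 9.70 in Stat3-deleted cells, against 9.37, 9.54 and 9.79 in control cells (0.09 ± 0.15). Ifi27l2a was at 6.46, 6.31 and 6.47 in Stat3-deleted cells, against 6.61, 6.08 and 6.29 in control cells. The genotypes overlapped for these 3 genes as well. Deleted replicate 4 was the lowest of its group for 24 members and replicate 6 the highest for 27. The sign of the median depended on the fit: with array weights it was 0.23, with 27 members above 0, and it ran between -0.30 and 0.03 with 1 array left out. T and NK cell markers stood apart by genotype in these cells: their mean was 6.97 to 8.26 in Stat3-deleted cells and 6.43 to 6.86 in control cells, 14 of 14 tested were above 0 and 0 passed. The mean of 8.26 was that of deleted replicate 4, with replicates 5 and 6 at 7.22 and 6.97. Replicate 4 also had the lowest epithelial marker mean of the epithelial cell arrays (11.29). The part of T and NK cells in the members' values was not tested.

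The tissue difference of the effect, tumours minus epithelial cells, was above 0 for all 34 members (43.5% of all genes) and ran between 0.08 (Irf8) and 1.996 (Ifit1), with a median of 1.08. None passed by limma, 20 members and 9.38% of all genes had an unadjusted p under 0.05, and the lowest adjusted p was 0.323 (Ube2l6, 1.06 ± 0.25). Among all genes, 0.00578% passed in each direction. With array weights 6 members passed, with 2.19% of all genes as higher and 3.81% as lower, and the median was 0.71. Without control replicates 9 and 15 none passed, 32 members had an unadjusted p under 0.05 and the median was 1.32.

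Between tissues, control tumours averaged below control epithelial cells for 30 of the 34 members, while 46.5% of all genes averaged above them. In control mice 18 members were lower in tumours and 2 higher past the test, against 35.3% and 30.4% of all genes, and the median was -0.76. All control tumours lay below all control epithelial cells for 13 members and above for 0, against 26.3% and 24.8% of all genes. All 4 OAS genes and all 3 ISG15 system genes fell, led by Oas3, which was at 6.39 to 7.42 in control tumours and at 9.05 to 9.94 in control epithelial cells (-2.40 ± 0.26, adjusted p = 2.42e-06). Herc6 and Oasl2 (both -1.92), Ifit1 (-1.70), Ifih1 (-1.67), Ube2l6 (-1.61) and Irf7 (-1.40) fell as well. Gbp3 (1.49 ± 0.45, adjusted p = 0.00948) and Ifit2 (1.43 ± 0.52, adjusted p = 0.0234) rose. Since the epithelial cells had Xist levels of male samples, male control tumours alone were also set against them, which gave a median of -1.21 with 22 members lower and 0 higher, against 26.5% and 25.9% of all genes. Without control replicates 9 and 15, 26 members were lower and 1 higher, against 29.9% and 27.7% of all genes, with a median of -1.09.

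In Stat3-deleted mice the same contrast had 6 members higher and 4 lower past the test, against 30.3% and 36.2% of all genes, with a median of 0.29. Neither this balance nor the sign of the median was stable. With array weights 7 were higher and 11 lower, against 36.5% and 41.0% of all genes, with a median of -0.09, and with quantile normalisation 4 were higher and 7 lower with a median of 0.03. The median was 0.07 without Stat3-deleted epithelial replicate 4 and 0.11 without Stat3-deleted male replicate 11, and 6 members passed without epithelial replicate 5 or with male tumours only. Ifit2 (2.89 ± 0.52, adjusted p = 0.000246), Gbp3 (2.80 ± 0.45, adjusted p = 0.000121) and Irgm1 (2.16 ± 0.49, adjusted p = 0.00136) rose most, followed by Bst2 (1.11), Eif2ak2 (1.04) and Ifit3 (1.02). Ifit2 was at 8.32 to 9.90 in the 6 Stat3-deleted tumours and at 5.24 to 7.06 in Stat3-deleted epithelial cells. Oas3 (-1.30), Ifi35 (-0.70), Oasl1 (-0.67) and Ube2l6 (-0.55) fell. The tumours were apart from the epithelial cells for 3 members as higher and 3 as lower, against 27.1% and 28.8% of all genes. These 4 were also lower past the test in control mice, and Ifit2 and Gbp3 were higher in both. In deleted mice 20 members averaged above 0 (47.1% of all genes). For 16 members the tumours averaged below the epithelial cells in control mice and above them in deleted mice, and the 14 members that passed as lower in control mice alone include Irf7 (-0.45, adjusted p = 0.0671 in deleted mice), Oasl2 (-0.44, adjusted p = 0.293) and Ifi27l2a (-0.14, adjusted p = 0.5). Whether the genotypes differ in this contrast is the tissue difference tested above, which no member passed. Fibroblast markers averaged 9.42 to 11.21 in the tumours and 6.19 to 6.87 in the epithelial cells, and macrophage and dendritic cell markers 6.52 to 7.99 and 5.55 to 5.93. Their part in the tissue contrasts was not tested.

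**Figure D4:**
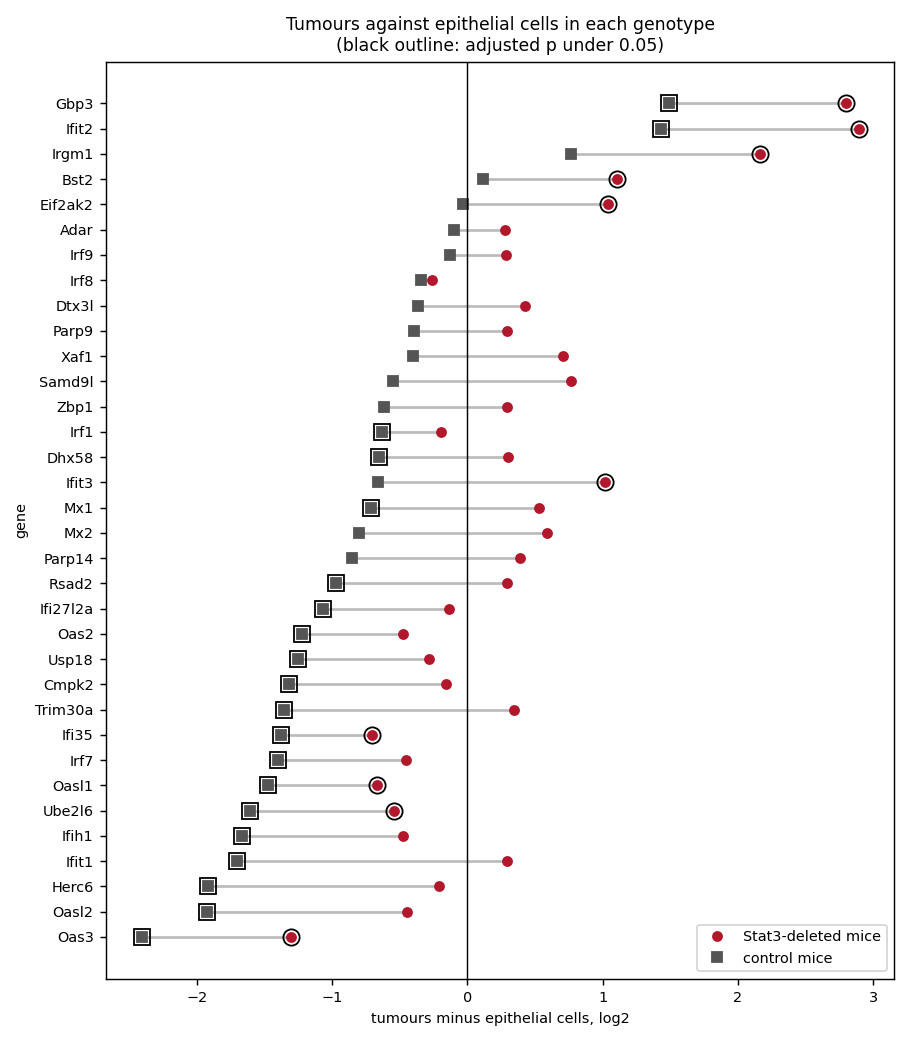
Tumour minus epithelial cell difference (horizontal axis, log2) of the 34 genes in Stat3-deleted mice (red circles) and control mice (grey squares), joined by a line for each gene, with a black outline where the adjusted p was under 0.05. The red circle lies right of the grey square for every gene, and the medians are 0.29 in deleted mice (-0.09 with array weights) and -0.76 in control mice.

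Ordered by group mean, 19 members were highest in Stat3-deleted female tumours, 7 in Stat3-deleted epithelial cells, 7 in control epithelial cells and 1 in Stat3-deleted male tumours. Control male tumours were lowest for 30 members and Stat3-deleted epithelial cells for 4. The neighbours in that order often lay within their spread. Ifit3 averaged 8.56 ± 0.16 in Stat3-deleted female and 8.42 ± 0.89 in Stat3-deleted male tumours (SD, n = 3 each), a gap smaller than the male SD. Ube2l6 averaged 9.70 ± 0.08 in Stat3-deleted and 9.85 ± 0.34 in control epithelial cells, within the SD of the controls.

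Elsewhere in the pathway, no transcript of an interferon itself passed under Stat3 deletion. Of 16 interferon genes on the platform, 10 were tested and none passed in tumours of both sexes by limma (median -0.06, 1 at an unadjusted p under 0.05, Ifng lowest at -0.49), and their mean stayed at 4.47 to 4.72 in Stat3-deleted and 4.56 to 4.91 in control tumours, near the arrays' 25th percentiles of 4.30 to 4.57. None of 6 receptor genes, 11 sensor and adaptor genes or 5 inhibitor genes passed, with 1, 2 and 1 at an unadjusted p under 0.05. Of the 11 sensor and adaptor genes, 9 were above 0, with Tlr3 highest at 0.50 and Sting1 lowest at -1.10. The Sting1 difference was -0.90 in males and -1.29 in females. Stat2, a subunit of the factor that binds the ISRE, rose by 0.90 ± 0.20 (adjusted p = 0.044). Among 37 other interferon-stimulated genes, none passed by limma, 24 had an unadjusted p under 0.05, 32 were above 0 and the median was 0.45. Of 15 interferon gamma targets and antigen presentation genes, 4 rose in tumours of both sexes: Ido1 (1.69 ± 0.33, adjusted p = 0.0224), a tryptophan-degrading enzyme, Ciita (1.02 ± 0.15, adjusted p = 0.00193), the master regulator of MHC class II genes, Psmb9 (0.98 ± 0.21, adjusted p = 0.0415) and Tap2 (0.76 ± 0.14, adjusted p = 0.0153). Their list had a median of 1.21 in males and 0.15 in females.

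Markers of other cells were set beside these results. Of 12 macrophage and dendritic cell markers, 1 was above 0 in tumours of both sexes, the median was -0.24 and none passed, and their mean was 6.59 to 7.78 in Stat3-deleted and 6.52 to 7.99 in control tumours. The 2 highest controls were replicates 15 (7.99) and 9 (7.60), and without them the control tumours were at 6.52 to 7.10. Deleted replicate 18 was at 7.78 and the other deleted tumours at 6.59 to 6.92. The median is not given without replicates 9 and 15. T and NK cell markers had a median of 0.11 with 9 of 14 above 0, and their mean was 5.85 to 6.39 in Stat3-deleted and 5.59 to 6.38 in control tumours. B and plasma cell markers had a median of 0.37 with 4 of 4 above 0, and their mean was 7.35 to 8.35 in Stat3-deleted and 6.58 to 7.62 in control tumours. Of 4 plasmacytoid dendritic cell markers, a list that also holds the member Bst2, 2 were above 0. Epithelial markers had a median of 0.06, endothelial markers -0.09 and fibroblast markers -0.12, and none passed. Neutrophil markers had a median of -0.03 with 2 of 6 above 0, and 1 of them, Ly6g, fell by 2.99 (adjusted p = 0.00193). The part of cell content in the members' differences was not tested.

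**Figure D5:**
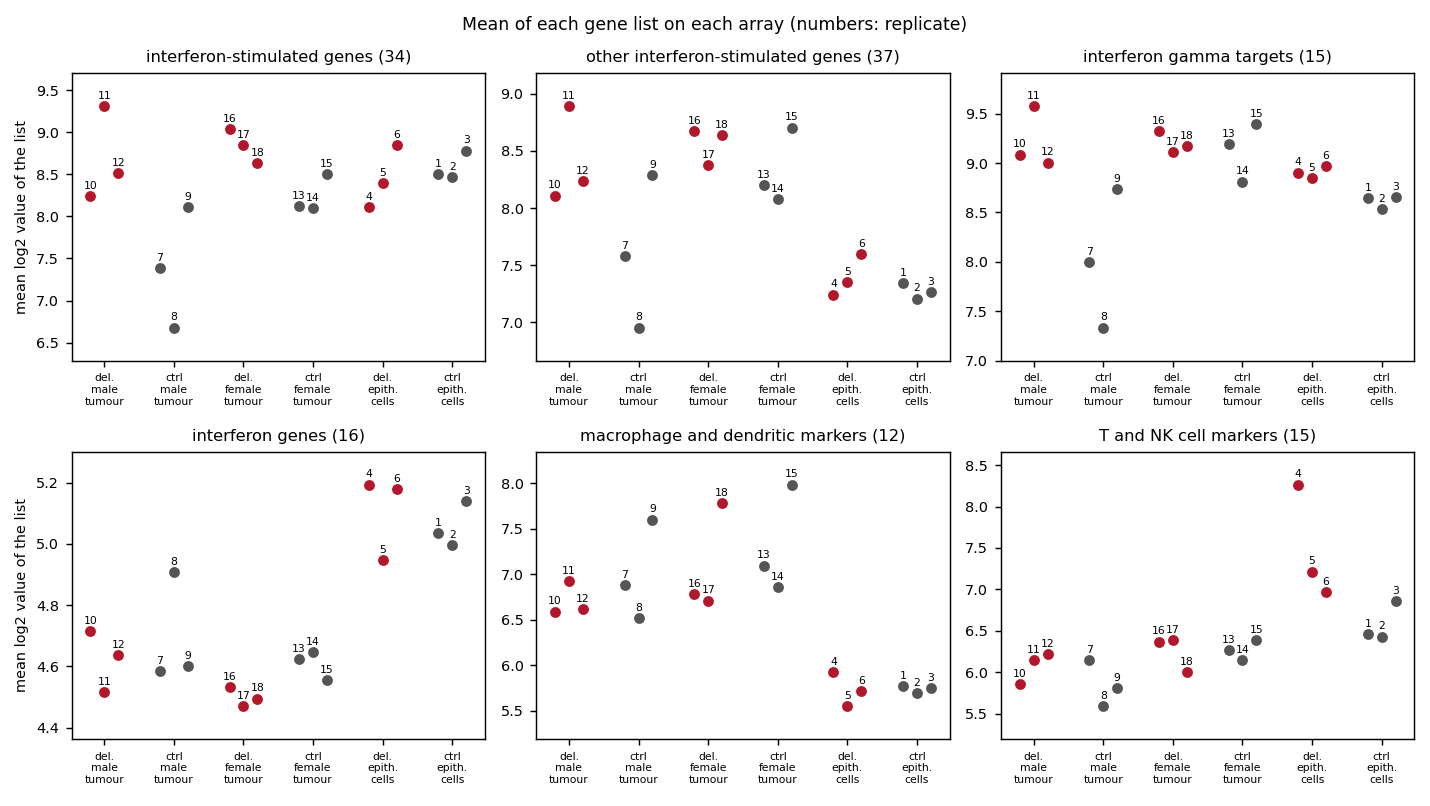
Mean log2 value (vertical axis, range set per panel) of 6 gene lists on each array, with the replicate number at each point, deleted groups in red and control groups in grey. The 34 members and the 37 other interferon-stimulated genes are lowest in control male replicate 8, while the macrophage and dendritic markers of deleted tumours (6.59 to 7.78) lie within the range of control tumours (6.52 to 7.99).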

How the data were processed

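RNA of 18 mouse samples was measured on Affymetrix arrays, 1 array each, in 6 groups of 3 read from the sample titles. The deposited values are log2 expression values, processed with RMA per the submitters' processing notes. Neither the RMA version nor the array library nor batches are named there. Values ran between 1.33 and 14.6 with array medians of 5.88 to 6.07. Precision is limited by the number of arrays, and the values carry no call of which genes exceed background.

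Of 35556 probe sets, 21789 had 1 symbol in the platform table, 1621 had several and 12146 were not listed. Genes were tested when above the array's 25th percentile on at least 3 arrays, which kept 17316. A mean per group was fitted to all 18 arrays in limma 3.58.1 (R 4.3.3) with an intensity trend, in 9 two-sided comparisons, each adjusted by the Benjamini-Hochberg method at 0.05, and tested on simulated data. No 2 arrays were identical. Promoters and neighbouring genes came from RefSeq tables (GRCm38.p6), using the first entry per gene.

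The members, lists and comparisons were chosen with earlier results of these data known. All members found are named, with values array by array for those that passed under Stat3 deletion and for examples by role. Alternatives were the compared groups alone, array weights, quantile normalisation, other filters, the mean of all probe sets, no intensity trend, male tumours only, and leaving out arrays.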

Additional observations from a re-analysis of the deposited data

How the results depend on the processing

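No paired analysis was possible because the replicate numbers 1 to 18 are unique over the series and no 2 groups share one. Of 520 recomputed values, 466 kept direction and side of the threshold or stayed near the reported value, 36 single-gene calls lost significance, 18 counts or medians moved and no called value reversed. A median counted as near when it moved by less than 0.424, the SD of the members' mean among the arrays of a group, and a count when within a set ratio. Medians over the members, which carry no call, changed sign in 4 fits, 3 in epithelial cells and 1 in tumours minus epithelial cells of deleted mice (-0.09 with array weights). These 4 moved by less than that margin and are among the 466. The cause was not tested for any of the changes. In male tumours the members passing numbered 4, against 0 with the compared groups fitted alone, 18 without control replicates 9 and 15, and 0 (without replicate 11) to 15 (without replicate 9) with an array left out. In female tumours 0 passed, against 15 with array weights and 0 to 1 (without replicate 18) with an array left out. In both sexes 7 passed, against 3 with the compared groups fitted alone, 25 with array weights, 24 without control replicates 9 and 15, and 4 (without replicate 16) to 20 (without replicate 9) with an array left out. Fitted alone, the tumours lost Irf7 (adjusted p = 0.0628), Oas3 (0.0661), Ifit3 (0.0932) and Oasl2 (0.18). Irf1 in males was also lost with array weights (0.0786), without the filter (0.057) and with the mean of its 2 probe sets (0.08). Calls of the tissue difference numbered 0, against 6 with array weights. The control median of tumours minus epithelial cells was -0.76, against -1.21 with male tumours only. In deleted mice 10 members passed in that contrast, against 18 with array weights, 6 with male tumours only, and 6 (without replicate 5) to 12 (without replicate 10) with an array left out. The median sex difference was -0.98 to -0.38 and that of male minus female tumours -0.68 to -0.32 with an array left out. In epithelial cells the median ran between -0.30 and 0.03 with an array left out and was 0.23 with array weights. The values carry no measure of signal over background, so no limit can be given for dim genes such as Mx1 and Mx2.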
